A study of Mus musculus with 6 samples.

Results

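The mouse genome carries a large family of C2H2 zinc finger genes, and the 63 protein-coding genes named Zfp900 to Zfp999 in GENCODE M21 are described here, of 21938 protein-coding genes on chromosomes 1 to 19, X and Y. The rule that picks them uses the gene name alone and no measured value. Chromatin accessibility around them was taken from 6 ATAC-seq peak lists, in which the transposase Tn5 marks open DNA. 3 control samples and 3 samples treated with mycophenolate mofetil (MMF) for 24 h, an inhibitor of inosine monophosphate dehydrogenase and so of guanine nucleotide synthesis, were compared to ask whether blocking this pathway alters open chromatin. All 6 samples were L-GMP cells of WT genotype, leukemia stem cells (LSCs) from a mouse acute myeloid leukemia driven by the MLL-AF9 fusion, kept in culture with IL3. The label Blood stands for the tissue. The sources give more than 1 dose of MMF and more than 1 treatment time, of which the labels give 24 h. Nothing says whether the samples came from separate cultures or animals, so that p-values measure only the spread between these samples.

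A C2H2 zinc finger protein reads DNA through a row of fingers, each a short loop held by zinc. Most rodent members of this kind also start with a KRAB domain, which recruits the scaffold protein TRIM28 and through it histone methylation and silencing, and many are known to bind transposable elements. New copies arise by tandem duplication, so genes of this kind stand in chromosomal clusters of close relatives. Translated from their longest annotated coding sequence, the 63 genes had a median of 11 fingers and at most 21, and 53 of them matched a KRAB A box pattern. No finger was matched in Zfp935, Zfp957 or Zfp972. Of the 63 genes, 43 lay in 5 clusters of 3 or more genes with no more than 2 Mb between neighbours, and 20 lay elsewhere.

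Repeated copies limit how well reads can be placed. RefSeq promoters (build GRCm38.p6), which run from 250 bases before to 50 bases after a start, were at hand for 53 of the 63 genes. Of the 53, 7 had a promoter that occurs more than once, base for base, in the reference. That of Zfp966 (chr2:175931051-175931350, minus strand) occurs 5 times, among them at Zfp967, and is shown because it stands for the chromosome 2 cluster. Capitals in this and the following sequences mark CCAAT boxes, the motif of the factor NF-Y, and GGGCGG, the motif of SP factors, on either strand.
Zfp966: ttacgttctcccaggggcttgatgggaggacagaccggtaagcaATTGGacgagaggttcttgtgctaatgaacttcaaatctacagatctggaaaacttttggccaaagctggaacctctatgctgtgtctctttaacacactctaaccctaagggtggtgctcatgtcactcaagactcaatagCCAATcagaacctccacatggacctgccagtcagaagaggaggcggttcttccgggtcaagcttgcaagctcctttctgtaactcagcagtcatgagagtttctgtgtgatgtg
The Zfp959 promoter (chr17:55891843-55892142, plus strand) is shown because it had the highest level of all members.
Zfp959: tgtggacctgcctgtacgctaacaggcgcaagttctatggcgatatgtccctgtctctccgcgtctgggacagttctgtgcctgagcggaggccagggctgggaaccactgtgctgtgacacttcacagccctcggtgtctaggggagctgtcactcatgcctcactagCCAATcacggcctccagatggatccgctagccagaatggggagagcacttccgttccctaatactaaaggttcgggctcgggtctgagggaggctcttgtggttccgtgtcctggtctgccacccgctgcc

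On chromosome 4, the promoters of Zfp984 (chr4:147809739-147810038, minus strand) and Zfp985 (chr4:147553027-147553326, plus strand) are shown because the former held a peak in all 6 lists and the latter in none. The stretches around the promoter summits of Zfp993 (chr4:146610855-146611050, plus strand) and Zfp991 (chr4:147131934-147132134, plus strand) follow as the closest relatives of Zfp984 that held a peak.
Zfp984: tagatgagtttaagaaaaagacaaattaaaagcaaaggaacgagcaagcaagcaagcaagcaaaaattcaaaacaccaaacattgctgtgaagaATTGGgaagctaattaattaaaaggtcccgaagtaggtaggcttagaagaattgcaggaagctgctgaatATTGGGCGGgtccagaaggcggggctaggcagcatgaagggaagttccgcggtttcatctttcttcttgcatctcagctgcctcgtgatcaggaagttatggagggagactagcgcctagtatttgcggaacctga
Zfp985: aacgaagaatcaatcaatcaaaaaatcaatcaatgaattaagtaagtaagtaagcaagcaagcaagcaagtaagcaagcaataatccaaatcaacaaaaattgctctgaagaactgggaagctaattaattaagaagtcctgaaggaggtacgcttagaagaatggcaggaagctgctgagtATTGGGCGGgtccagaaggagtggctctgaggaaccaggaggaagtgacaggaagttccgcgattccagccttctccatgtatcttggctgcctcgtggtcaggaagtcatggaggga
Zfp993: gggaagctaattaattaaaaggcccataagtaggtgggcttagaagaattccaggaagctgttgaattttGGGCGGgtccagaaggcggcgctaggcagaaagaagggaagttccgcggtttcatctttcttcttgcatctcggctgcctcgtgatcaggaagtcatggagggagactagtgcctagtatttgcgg
Zfp991: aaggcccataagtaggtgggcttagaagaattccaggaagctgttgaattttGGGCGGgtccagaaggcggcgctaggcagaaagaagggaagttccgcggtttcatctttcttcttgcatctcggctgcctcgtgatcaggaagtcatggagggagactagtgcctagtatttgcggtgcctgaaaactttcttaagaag
In Zfp984 and Zfp985 a CCAAT box on the other strand runs into a GGGCGG motif.

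The motifs were counted in the 300 bases of each promoter. Some of these promoters are near copies of each other, so members are not independent in these counts. CCAAT on either strand was found in 40 of 53 members (75.5%), against 42.1% of 16522 protein-coding genes and 47.4% of 247 other numbered Zfp genes. GGGCGG was found in 18 of 53 (34.0%), against 51.0% of all. The ELK1-type motif CCGGAAGT was found in 3 of 53 (5.66%), against 5.94% of all, and the consensus motifs of NRF1 and YY1 in 0 of 53, against 9.99% and 1.12% of all. A longer form of the box, GCCAATCA, which contains CCAAT and was picked after the sequences had been read, was found in 20 of 53 (37.7%), against 5.43% of all. Within the clusters it stood in 8 of 9 promoters on chromosome 2, 3 of 4 on chromosome 7 and 2 of 2 on chromosome 8. It stood in none of the 10 each in the clusters of chromosomes 4 and 17. Outside the clusters it stood in 7 of 18, that of Zfp959 on chromosome 17 among them. CCAAT was found in 29 of the 41 members with a promoter peak and in 11 of the 12 without. At Zfp935 and Zfp993 the RefSeq start lies more than 1000 bases from every GENCODE start, so that their motifs and peaks are not read from the same place, and the Zfp993 stretch above is that at the GENCODE start.

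Placement was measured as the share of 36-base words in the promoter windows (1000 bases on either side of every annotated start) that occur once in the reference. The median was 55.7% over the 63 members, 97.5% over the 302 other numbered Zfp genes and 97.7% over all protein-coding genes. With 75-base words the medians were 85.0%, 99.97% and 100%. 6 members, Zfp965, Zfp966, Zfp967, Zfp968, Zfp969 and Zfp973 on chromosome 2, had no unique word at either length. 15 members were at least 90% unique. How the reads of identical copies were placed is not given in the sources used here, so a value at such a gene may belong to any of its copies.

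The depth and identity of the samples were checked next. The lists held 58496 to 63911 peaks in control and 80893 to 86556 in MMF, and the genome-wide background, which follows depth, was 0.62 to 0.729 reads in control and 0.676 to 0.909 in MMF. A promoter level is the summit read count of the highest promoter peak, in whole reads, divided by this background, with 0 written where the list held no peak, which is not a measured absence of open chromatin. The median peak rested on 14 to 19 summit reads, so low levels carry counting error. Of 9 myeloid progenitor genes, all held a promoter peak in at least 1 list and 6 in all 6, while Cd3e, Cd3g and Cd8a of T cells and Ms4a1 and Cd79a of B cells held none. Lck and Pax5 of the same lists held a peak in all 6, as did 1 of 4 erythroid and 3 of 4 stromal genes. In at least 1 list, all 4 erythroid and all 4 stromal genes held a peak, as the myeloid genes did. Their part in the results was not tested.

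A promoter peak was found for 46 of the 63 members (73.0%) in at least 1 list, against 65.9% of all protein-coding genes and 90.7% of the other numbered Zfp genes. It was found in all 6 lists for 40 members and in 1 to 5 lists for 6, namely Zfp937, Zfp965, Zfp968, Zfp973, Zfp974 and Zfp976. The lists held 44, 43 and 44 member promoters in control and 43, 42 and 42 in MMF, a difference not shown beyond the spread (exact permutation test, two-sided, p = 0.2). With every list cut to the same number of peaks, the means were 43.0 ± 1.00 and 39.7 ± 0.577 (SD, n = 3 each, exact permutation p = 0.1, the smallest the design allows). All protein-coding genes moved the same way, from 12875 ± 32.0 to 12443 ± 29.8 promoters, as did the other numbered Zfp genes, from 261 ± 0.577 to 253 ± 2.65. Without a peak in any list were 12 members on chromosome 4 (Zfp978 to Zfp982, Zfp985 to Zfp990 and Zfp992), Zfp936 and Zfp977 on chromosome 7, Zfp967 on chromosome 2, and Zfp951 and Zfp957 elsewhere. Peaks were found for 14 of the 15 members of at least 90% uniqueness, and for 7 of the 12 members below 10%. For all protein-coding genes these shares were 73.1% and 13.3%. Of the other numbered Zfp genes of at least 90% uniqueness, 92.7% held a peak, against 93.3% of such members.

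**Figure D1:**
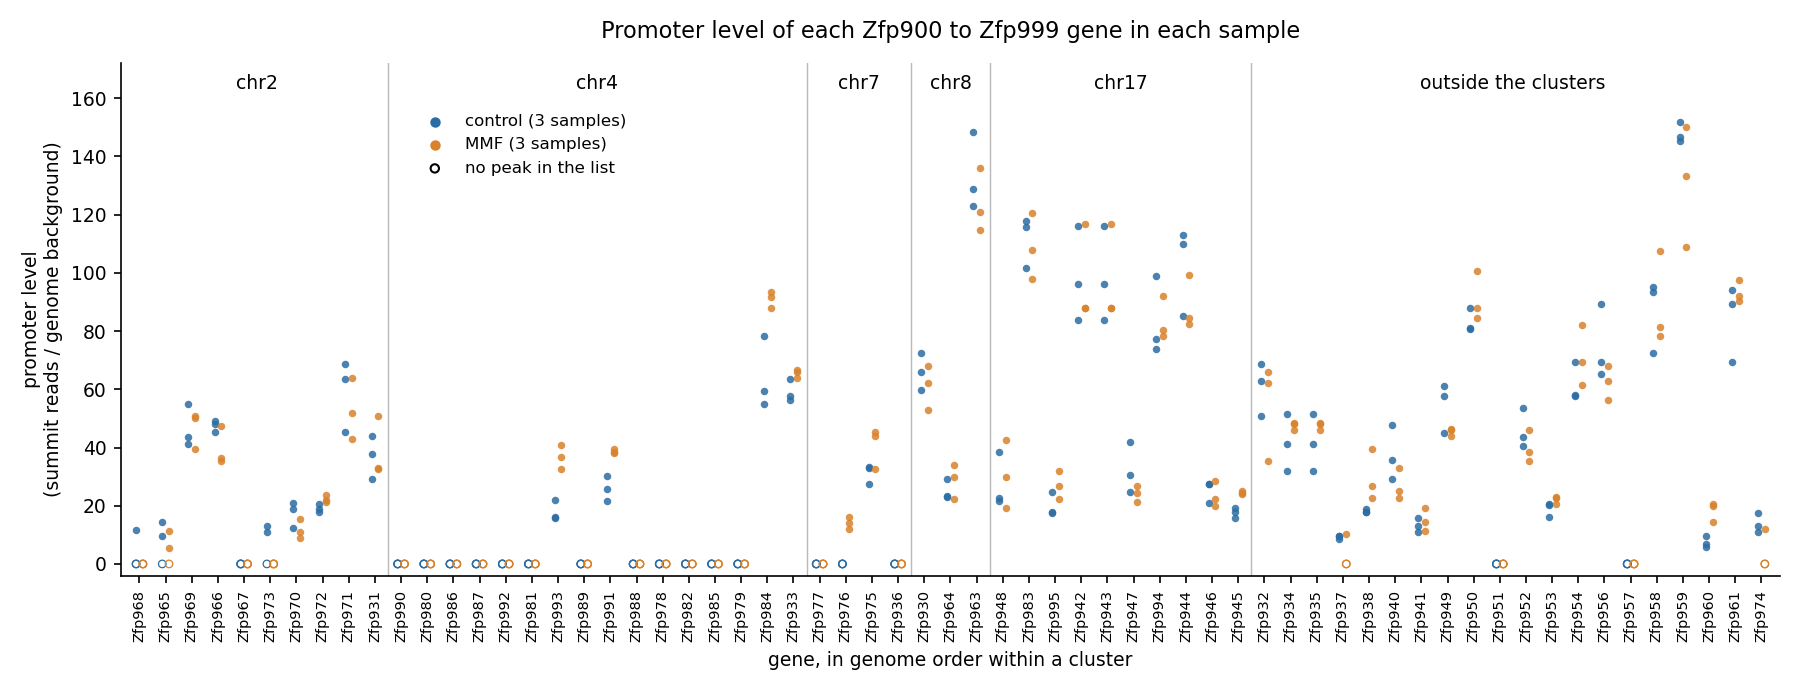
Promoter level (reads over the summit divided by the genome-wide background of the list) of each of the 63 genes in each of 3 control and 3 MMF samples, in genome order within a cluster. Open circles at 0 mark lists without a peak. 12 of the 16 genes on chromosome 4 have no peak, while all 10 of the chromosome 17 cluster have 1 in all 6 samples.

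**Figure D2:**
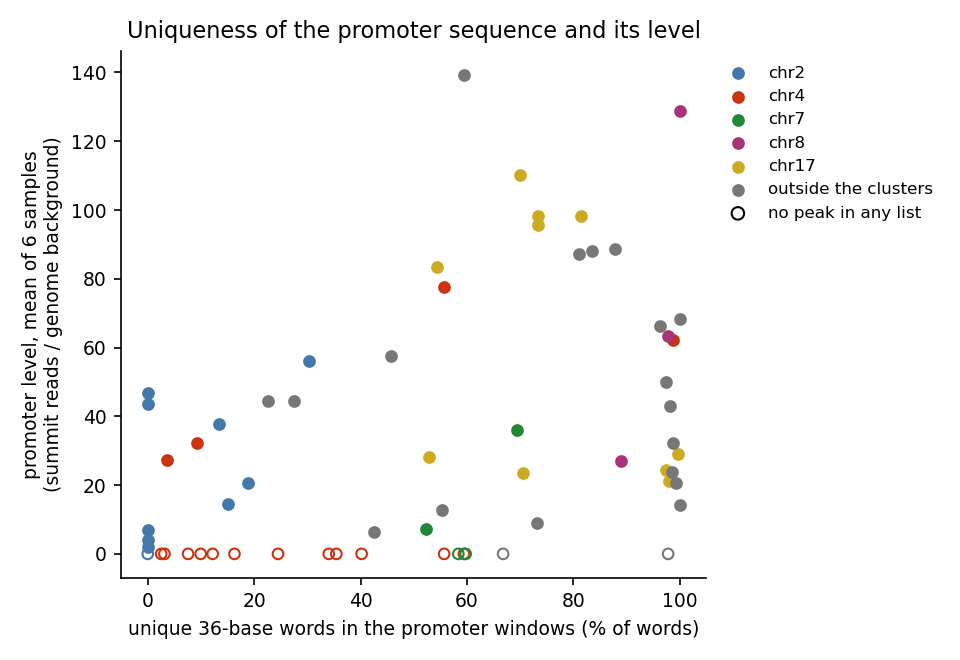
Share of unique 36-base words in the promoter windows against the promoter level, mean of 6 samples, with 1 point a gene coloured by cluster and open where no list held a peak. Zfp966 and Zfp969, at 0% unique words, have levels of 43.6 and 46.8, and most genes without a peak lie below 70%.

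The 6 highest levels belonged to genes of chromosomes 8 and 17. Zfp959 stood at 147, 152 and 145 in control and at 109, 150.1 and 133 in MMF. Its 3 control samples lay close together, and MMF 1 lay below the other 5 samples. Zfp963, with 7 fingers, stood at 129, 123 and 148 in control and 121, 114.7 and 136 in MMF. Zfp983 stood at 102, 116 and 118 in control and 97.9, 120.4 and 108 in MMF. For both genes the groups overlapped. Zfp942 and Zfp943 lie head to head on opposite strands and share a single peak, which stood at 96.02, 83.9 and 116 in control and 88.0, 87.8 and 117 in MMF. Zfp944, whose promoter differs from that of Zfp942 by 1 base in 275, stood at 85.0, 110.0 and 113 in control and 82.5, 99.2 and 84.3 in MMF. These genes share sequence and are not independent. Among the 14459 protein-coding genes with a promoter peak, the mean level of Zfp959 was at percentile 91.8 and that of Zfp944 at percentile 71.5.

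The chromosome 2 cluster (175372436 to 178078476) held 10 members, Zfp931 and Zfp965 to Zfp973, of which all but Zfp972 had nearly the same promoter. Aligned to the 300 bases of Zfp966, those of Zfp967, Zfp968 and Zfp969 were identical, those of Zfp965 and Zfp973 were 99.7% identical, and those of Zfp970, Zfp971 and Zfp931 were 99.3%, 97.7% and 95.0% identical. That of Zfp972 was 83.4% identical over 223 columns. The listed peaks did not follow this identity. Zfp965 to Zfp969 and Zfp973 had no unique word, so a peak listed at 1 of them may belong to any copy. Zfp966 stood at 48.0, 49.2 and 45.2 in control and 36.3, 35.4 and 47.3 in MMF. Zfp969 stood at 41.2, 54.99 and 43.5 in control and 39.6, 51.0 and 50.3 in MMF. With the same 300 bases, Zfp967 held no peak and Zfp968 a peak in control 2 alone, at 11.6. Zfp973 held a peak in control 1 and control 3, and Zfp965 in 4 lists at 5.50 to 14.5. Among the members with some unique sequence, Zfp971, at 30.3% unique words, stood at 42.9 to 68.6 over the 6 samples, Zfp931 at 29.0 to 51.0, Zfp970 at 8.88 to 21.0 and Zfp972 at 17.7 to 23.7.

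The chromosome 4 cluster (145510759 to 147848366) held 16 members, Zfp933, Zfp978 to Zfp982 and Zfp984 to Zfp993, and 4 of them held a promoter peak. All 4, Zfp933, Zfp984, Zfp991 and Zfp993, held it in all 6 lists and stood higher in every MMF sample than in every control sample. Zfp984 stood at 78.2, 59.3 and 54.8 in control and 88.0, 93.5 and 91.7 in MMF, with means of 64.1 ± 12.4 and 91.1 ± 2.79 (SD, n = 3 each), a ratio of 1.42. Zfp993 stood at 21.9, 15.9 and 16.1 in control and 40.7, 36.8 and 32.5 in MMF, a ratio of 2.04. Zfp991 stood at 30.2, 21.7 and 25.8 in control and 39.6, 38.2 and 38.5 in MMF, a ratio of 1.497. The gap between the groups was wide for Zfp993 and Zfp984 and narrow for Zfp933, which stood at 57.6, 63.68 and 56.5 in control and 66.01, 63.74 and 66.6 in MMF. Only 3.61% of the words at Zfp993 and 9.18% at Zfp991 were unique, and none in their peaks, against 55.7% at Zfp984 and 98.7% at Zfp933. Reads at Zfp991 and Zfp993 cannot be told apart from those of their copies, and these genes are not independent measurements.

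Likeness to the Zfp984 promoter, an anchor picked after the values were seen, was higher at the members of chromosome 4 with a peak, apart from Zfp933. The best aligned stretch was 93.8% identical over 258 columns at Zfp993 and 90.7% over 312 columns at Zfp991. At the 11 members without a peak that aligned over more than 200 columns, it was 79.2% to 85.6%. Zfp933, with its own promoter, and Zfp992 matched over 13 and 12 columns only. The 11 copies without a peak were 2.52% to 59.4% unique. Of these, Zfp982 (59.4%) and Zfp985 (55.7%) reached the 55.7% of Zfp984, and the next highest was Zfp981 at 40.2%. The part of uniqueness in the missing peaks was not tested.

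**Figure D3:**
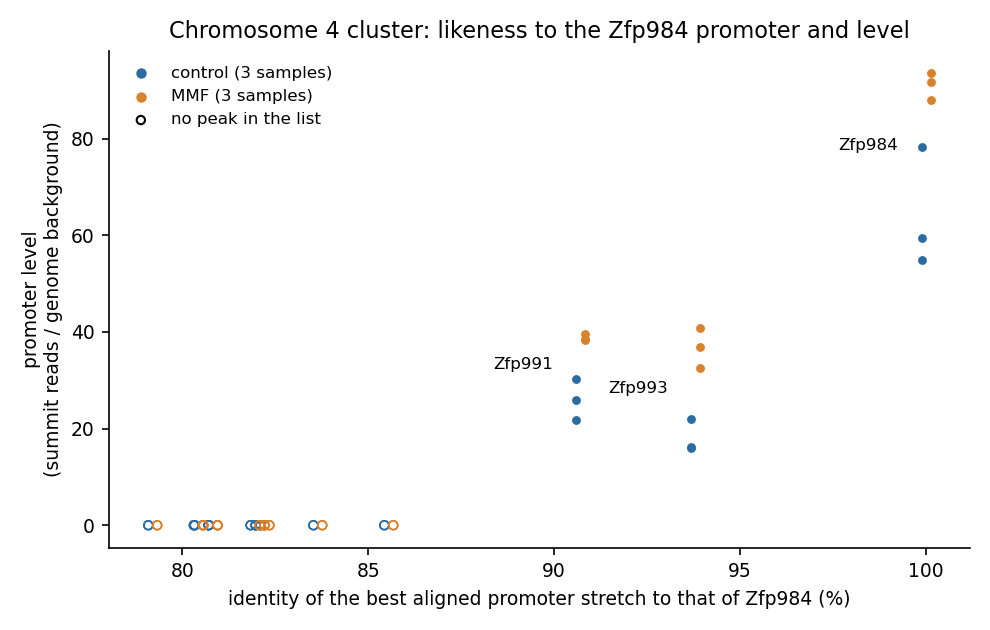
Identity of the best aligned promoter stretch to the Zfp984 promoter against the promoter level in 3 control and 3 MMF samples, for the 14 chromosome 4 genes that aligned over at least 200 columns (points of the groups are set slightly apart along the identity axis). The 11 genes at 79.2% to 85.6% identity have no peak, and the 3 at 90.7% or more stand higher in every MMF sample than in every control sample.

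All 10 members on chromosome 17 (21567008 to 22867134), Zfp942 to Zfp948, Zfp983, Zfp994 and Zfp995, held a promoter peak in all 6 lists. Their median level was 56.2, and Zfp945 alone was higher in every MMF sample, at 24.2, 24.1 and 25.1 against 19.2, 15.9 and 17.7 in control. All 3 members on chromosome 8 (69209038 to 69749970), Zfp930, Zfp963 and Zfp964, held a peak in all 6 lists, and their groups overlapped. On chromosome 7 (42579783 to 43192109), Zfp975 held a peak in all 6 lists at 27.4 to 45.3, Zfp976 in the MMF lists alone, and Zfp936 and Zfp977 in none. The promoters of Zfp936, Zfp975 and Zfp977 aligned to that of Zfp976 at 90.5% to 92.4% identity.

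Of the 20 members elsewhere (Zfp932, Zfp934, Zfp935, Zfp937, Zfp938, Zfp940, Zfp941, Zfp949 to Zfp954, Zfp956 to Zfp961 and Zfp974), 18 held a promoter peak and 16 held it in all 6 lists. Zfp934 and Zfp935 overlap and share a promoter peak at 31.8 to 51.6, which lies at a GENCODE start. The RefSeq promoter of Zfp935 overlaps a different region (chr13:62466487-62467212), which stood at 45.3 to 71.3 over the 6 lists and is not in the promoter level. Zfp938 stood at 17.8, 18.8 and 17.7 in control and 39.6, 22.7 and 26.6 in MMF, with means of 18.1 ± 0.594 and 29.6 ± 8.86 (SD, n = 3 each) and MMF 1 well above the rest. Zfp974 held a peak in all 3 control lists, at 10.97, 17.4 and 12.9, and in MMF 1 alone of the MMF lists, at 12.1. Zfp937 likewise held a peak in all 3 control lists, at 8.68 to 9.68, and in MMF 3 alone, at 10.4. All these peaks rest on 6 to 12 reads.

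Against MMF, 10 of the 46 members with a promoter peak (21.7%) had all 3 MMF samples above all 3 control samples, where 8.6% of the 14459 protein-coding genes with a peak did. None had all 3 below, where 14.8% of all genes did. With the rank by fold enrichment in place of the level, 8 members were higher and 2 lower (Zfp949 and Zfp974), where 9.88% of all genes were higher and 8.03% lower, and 7 of the 10 were higher by both measures. An exact permutation test of a single promoter cannot go below p = 0.1 with 3 samples against 3, so none was called that way. The 10 were Zfp933, Zfp938, Zfp945, Zfp953, Zfp960, Zfp972, Zfp976, Zfp984, Zfp991 and Zfp993. Zfp976 entered through its MMF lists alone, so the 0 written in control fixed its gap, as for any such gene in the 8.6%. At equal list length it held a peak in 2 lists and its groups overlapped. Besides those described, Zfp953 (ratio 1.17) and Zfp972 (ratio 1.17) had a small gap between the groups.

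The share of genes higher with MMF moved with the level itself. Grouped by mean level, with limits set after the values were seen, 36.8% of 19 members below 30 and 16.9% of 3876 genes below 30 were higher without overlap. Between 30 and 80, 3 of 17 members (17.6%) and 9.82% of all genes were, and from 80 up 0 of 10 members and 1.80% of all genes. Members had a median level of 39.5 in control, against 65.6 for all genes with a promoter peak. The part of the level in the members' count was not tested. The median difference over the 46 members was 0.33 level units (MMF minus control, 24 higher and 22 lower), against -2.81 over all genes with a peak. Under 5 alternatives the median over the members turned below 0, among them at equal list length.

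**Figure D4:**
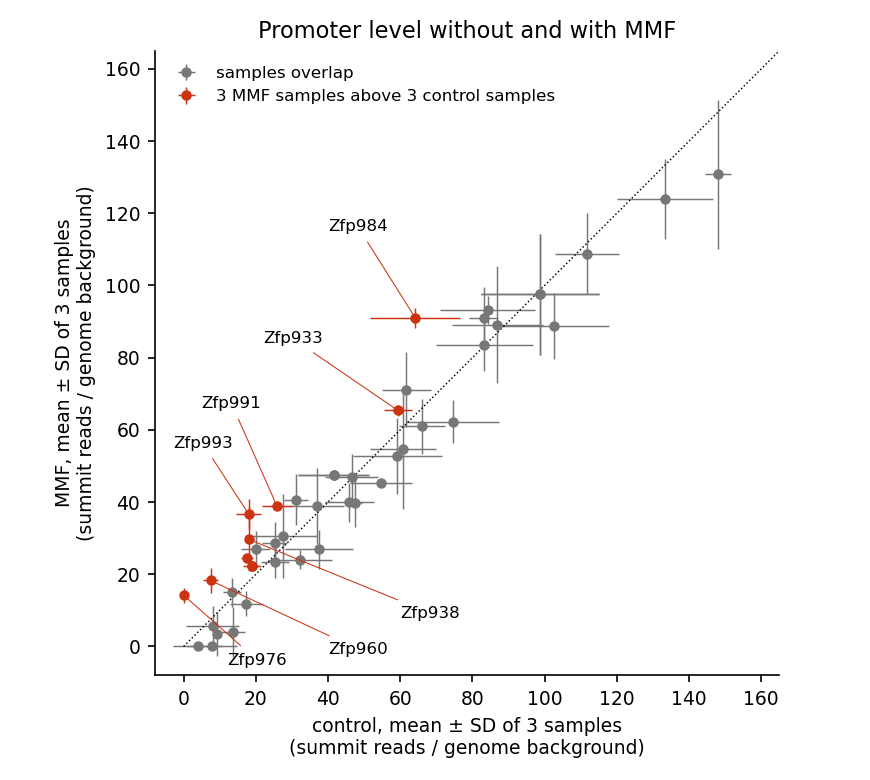
Mean promoter level in control against MMF with SD bars (n = 3 each) for the 46 genes with a promoter peak in at least 1 list, lists without a peak entered as 0, and the line of equality dotted. The 10 genes in red have every MMF sample above every control sample, and no gene has the reverse.

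Each list's peaks were ranked by fold enrichment, the ranks turned into normal scores, and the scores tested with limma over the 41182 regions with a peak in all 6 lists. Of these, 47 belonged to members, 38 at promoters and 9 in gene bodies. 2 of the 47 (4.26%) were called higher with MMF at an adjusted p of 0.05 by limma with Benjamini-Hochberg adjustment over all shared regions, where 5.83% of all shared regions were, and 0 were called lower, where 0.185% were. At an unadjusted p of 0.05 limma gave 9 higher, where 22.3% of all were, and 0 lower, where 2.62% were. The median score of all shared regions was higher by 0.17 in MMF, and that of the 47 by 0.16. The MMF lists were longer, and at equal list length the medians were -0.096 over 35988 shared regions and -0.076 over the 45 of members. The part of list length was not tested. Ranked among shared regions alone, limma called 594 regions higher and 175 lower in place of 2402 and 76, and 0 of the members (lowest adjusted p = 0.069).

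The called regions differed in how unique their sequence was. The first lay in the body of Zfp950 (chr19:61080367-61080901), 36803 bases from the nearest start of a member and 100% unique. It stood at 17.8, 21.7 and 17.7 in control and 35.2, 43.9 and 39.9 in MMF (1.04 score units higher, SE 0.19, limma adjusted p = 0.0265), with no overlap. The 201 bases around its summit are shown from the minus strand (chr19:61080470-61080670).
Zfp950: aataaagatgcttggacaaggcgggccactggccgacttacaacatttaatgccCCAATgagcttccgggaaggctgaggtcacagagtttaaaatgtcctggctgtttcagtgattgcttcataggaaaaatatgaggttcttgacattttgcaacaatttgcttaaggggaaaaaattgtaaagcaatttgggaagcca
The second was the promoter region of Zfp993 (chr4:146610855-146611377) described above, with no unique word, higher by 1.0 score units (SE 0.20, limma adjusted p = 0.0318). Leaving out control 1 left 1 member call, and leaving out control 2 or control 3 left 0, with 1309 and 1589 regions still called higher over all shared regions (without control 3 and control 2). Without any 1 of the MMF samples limma called 0 regions of any gene, and at an unadjusted p of 0.05 it still gave 7227 to 8114 higher and 920 to 1069 lower.

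Gained regions, in all 3 MMF lists and no control list, numbered 4 of the 105 member regions (3.81%), where 6% of all 112852 regions were gained. Lost regions, in all 3 control lists and no MMF list, numbered 2 (1.90%), where 0.182% were lost. At equal list length the counts were 1 gained and 3 lost. The gained promoter was that of Zfp976 (chr7:42642512-42642770), at 12.1, 14.2 and 16.3 in MMF on 10 to 11 reads. It is shown from the minus strand with its CCAAT box.
Zfp976: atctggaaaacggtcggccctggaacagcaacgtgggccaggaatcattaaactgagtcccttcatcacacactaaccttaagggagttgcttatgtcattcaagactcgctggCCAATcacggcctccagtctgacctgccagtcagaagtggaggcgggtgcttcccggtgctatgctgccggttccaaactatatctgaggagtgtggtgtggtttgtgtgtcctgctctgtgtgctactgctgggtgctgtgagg
The 3 others lay in gene bodies, at Zfp932 (chr5:110002866-110003106, 20.9, 9.92 and 10.4 in MMF) and at the overlap of Zfp934 and Zfp935 (chr13:62513599-62513858, 8.80 to 11.3, and chr13:62544822-62545116, 11.3 to 14.3). A lost region lay beside the latter (chr13:62508743-62508999) at 17.8, 15.9 and 14.5 in control.

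The promoter of Zfp960 held a lost region and further regions that were neither gained nor lost. The lost region (chr17:17064184-17064461, 11.9% unique words) lay 218 bases from the start, at 6.86, 5.79 and 9.68 in control on 4 to 6 reads. It is shown from the plus strand.
Zfp960: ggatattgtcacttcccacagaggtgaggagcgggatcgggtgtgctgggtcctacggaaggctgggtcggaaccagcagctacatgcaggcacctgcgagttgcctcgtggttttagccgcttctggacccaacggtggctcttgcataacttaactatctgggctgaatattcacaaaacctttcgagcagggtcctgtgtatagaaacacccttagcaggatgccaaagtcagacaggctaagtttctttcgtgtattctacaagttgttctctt
A further region, at 828 bases from the start (chr17:17063015-17063427), stood at 14.3, 19.8 and 20.7 in MMF and at 5.49 in control 1 alone. Another, at 492 bases from the start (chr17:17063486-17063754), held a peak in MMF 2 alone, at 7.08. The promoter level, which follows the highest peak, was thus higher in every MMF sample while the peak next to the start was in no MMF list.

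Outside the promoter windows of protein-coding genes, member gene bodies held 18, 17 and 12 peaks in control and 22, 32 and 26 in MMF. The means were 15.7 ± 3.21 and 26.7 ± 5.03 (SD, n = 3 each), and the MMF lists all lay above those of control (p = 0.1 by two-sided exact permutation, the lowest possible here). At equal list length the same counts were 15, 13 and 12 against 13, 14 and 11, so the direction of the means turned. Over all protein-coding genes the means at equal length were 21287 ± 48.6 in control and 21789 ± 90.7 in MMF, and over the other numbered Zfp genes 177 ± 7.94 and 174 ± 8.02. Per 100 kb of body, members held 0.952 ± 0.195 peaks in control and 1.62 ± 0.306 in MMF, against 2.35 ± 0.121 and 3.49 ± 0.156 for all protein-coding genes. The other numbered Zfp genes held 2.37 ± 0.147 in control and 3.63 ± 0.177 in MMF. The highest member density, 1.95, lay below the lowest over all genes, 2.22. By cluster, member genes had a median of 2.20% unique 36-base words on chromosome 2, 15.8% on chromosome 4 and 51.8% on chromosome 7. The medians were 78.2% in the chromosome 17 cluster, 90.8% in the chromosome 8 cluster and 84.8% outside the clusters. The part of uniqueness in the density was not tested. Of the member peaks, 12 to 28 a list had their summit in an intron and 0 to 4 in the last exon, which holds the fingers in most genes of this kind. 36 members held no gene-body peak in any list.

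By cluster, the difference between the means was 3 peaks on chromosome 17 (2.67 ± 0.577 in control, 5.67 ± 1.15 in MMF) and 6 outside the clusters (10 ± 3 and 16 ± 1.73). Both have an exact permutation p of 0.1 (two-sided), adjusted to 0.3 over the 6 groups. In the chromosome 4 cluster the means were 2.33 and 4 peaks (exact permutation p = 0.6), and in the clusters of chromosomes 2, 7 and 8 at most 2 peaks stood in any list. The most peaks lay in Zfp935, with 3, 2 and 2 in control and 4, 4 and 3 in MMF, of which some also count for Zfp934. Zfp957 held 3, 2 and 2 in control and 2, 2 and 4 in MMF, and Zfp950 held 3, 2 and 2 in control and 2, 2 and 3 in MMF. Zfp957 had no promoter peak at all, although its windows were 97.8% unique. Its strongest region (chr14:79243379-79243858), 3656 bases from the start, stood at 45.3, 60.8 and 50 in control and 46.2, 60.9 and 51.8 in MMF, with the groups overlapping.

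**Figure D5:**
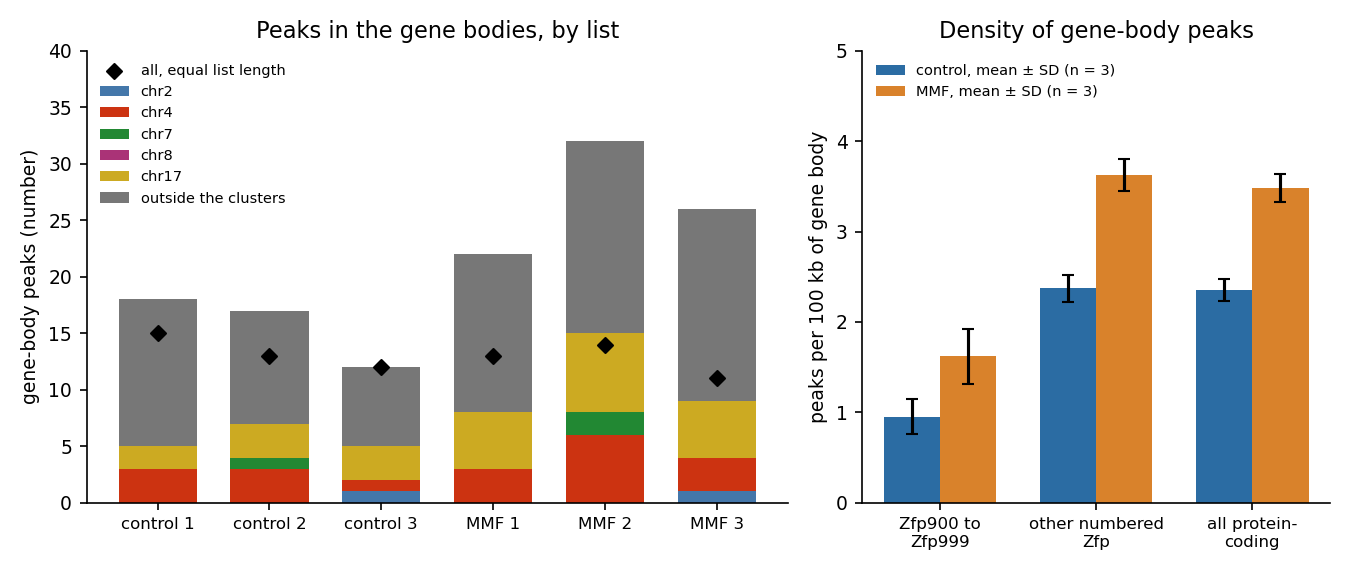
Left, gene-body peaks of the 63 genes in each list, stacked by cluster, with diamonds for the count when every list is cut to the 58496 peaks of lowest p. Right, peaks per 100 kb of gene body outside promoter windows, mean ± SD of 3 samples, for the 63 genes, the other numbered Zfp genes and all protein-coding genes. The MMF bars are higher at full list length, and the diamonds are not (15, 13 and 12 against 13, 14 and 11).

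Partners of KRAB zinc finger proteins and of heterochromatin were taken from a list of 25 names, of which 24 were found and the name Tasor was not. The list also holds Zfp57, itself a numbered Zfp gene. All 24 held a promoter peak in at least 1 list and 22 in all 6, with a median control level of 97.2. None stood higher in every MMF sample, and 3 stood lower in every MMF sample, where 14.8% of all genes did. Trim28, the scaffold that KRAB domains recruit, stood at 132 ± 12.7 in control and 123 ± 15.1 in MMF (SD, n = 3 each), and Setdb1, its histone methyltransferase partner, at 60.6 ± 3.39 and 63.1 ± 16.5. The 3 lower genes were Dnmt1, the maintenance DNA methyltransferase (154 ± 3.65 and 142 ± 4.16), its recruiter Uhrf1 (135 ± 8.71 and 111 ± 8.51) and the chromatin remodeller Smarca5 (102 ± 3.92 and 90.2 ± 7.61).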

How the data were processed

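ATAC-seq of 3 control and 3 MMF samples was analysed from the peak lists the authors deposited, 1 list a sample. The submitters' processing notes name FastQC, Trim Galore, Bowtie2, MACS2 and mm10, without versions. The lists give each peak's fold enrichment, a ratio of summit reads to background, with −log10 values of p and q, and the deposited score was not used. From the fold enrichment and p, whole summit reads and their background were solved (tolerance 0.1% of the −log10 p plus 0.001), which gave whole reads for 100% of the peaks of every list.

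Promoters were 1000 bases on either side of any start in GENCODE M21, overlapped by at least 1 base. The last exon was read from protein-coding transcripts. Overlapping peaks of all lists were merged into regions, and a region belonged to a member when it overlapped its gene or a promoter window. A gene-body peak was assigned by its summit. Fingers were matched as C-x(2 to 4)-C-x(12)-H-x(3 to 5)-H in translated coding sequences. Words were counted on both strands of 66 reference sequences of GRCm38. Promoter alignments were local. R 4.3.3 with limma 3.58.1 served for shared regions, and counts were compared by exact permutation tests, in Python 3.11.15. Steps were tested on simulated data. The members follow a rule on names, but that rule and the gene lists were set with earlier results of these data known. Values were printed in every sample for the 6 highest promoters, the 5 largest differences among promoters whose groups do not overlap in each direction (none was lower), regions called, gained or lost, and the 3 genes with most gene-body peaks. Genes outside this rule (Zfp933, Zfp937, Zfp945, Zfp966, Zfp969, Zfp974) and the likeness to Zfp984 were chosen after the values were seen. Of the marker genes, 1 is not reported here. The reads were not used, and the depth beyond the background is unknown.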

Additional observations from a re-analysis of the deposited data

How the results depend on the processing

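Equal list length (the 58496 peaks of lowest p from every list) changed most results. It turned the difference in gene-body peaks from 11 to -0.667 and the median promoter difference from 0.33 to -0.43, gave 2 non-overlapping lower promoters in place of 0 and 1 gained region in place of 4, and left 0 limma calls. The median also turned negative in members of at least 90% uniqueness (-0.0853) and without control 1 (-0.12), control 2 (-0.76) or MMF 2 (-3.39), with a range of -3.39 to 2.81 over the samples left out, and it was 0.47 and 1.73 percentile points by the ranks by fold enrichment and −log10 p. The count of non-overlapping lower promoters was 2 by fold enrichment rank and 1 by −log10 p rank, and 2 to 5 with a sample left out, where fewer samples make such a gap easier. That of higher ones was 4 of the 14 members of at least 90% uniqueness with a peak, where 1080 of 13106 such genes were higher, and 10 to 14 with a sample left out, and 8 to 11 under the ranks, the stricter q, equal list length and the narrower sets of starts, the last 2 of which (protein-coding and basic transcripts) were added after the data were seen. In members of at least 90% uniqueness the groups did not differ in promoters with a peak (difference 0). Lost regions numbered 1 at q below 0.01 and gained ones 5 to 7 with a sample left out (7 without MMF 1 or MMF 3). A peak lies inside its region, so asking for overlap relative to the narrower of the pair could change nothing, and asking each peak to cover at least 50% of its region, added after the data were seen, gave 6 gained and 2 lost. Limma called 0 member regions higher when ranks were taken among shared regions, 4 on log2 levels, and 0 to 1 with a sample left out.

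Whether the replicate numbers pair the samples is not known. The deviations of same-numbered samples correlated at 0.00406 to 0.00787, and those of differently numbered samples at -0.00668 to 0.000544. The same-numbered values were the highest, but all are very small and cannot decide the pairing. With the replicate block limma called 0 member regions (lowest adjusted p = 0.0524), and 678 higher and 13 lower of all. Sign flips within pairs, which cannot go below 0.25, gave p = 0.25 for promoters with a peak and for gene-body peaks (exact permutation within pairs).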
